A study of Mus musculus with 20 samples.

Results

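A set of 30 genes of fatty acid oxidation, made up of the enzymes and carriers of mitochondrial and peroxisomal beta-oxidation, the regulators Ppara and Ppargc1a and further target genes of PPAR alpha, was followed in 20 mouse intestinal RNA sequencing libraries. The genes were listed by name for their known roles, with earlier results of these data in view, and all 30 were found among the 24795 genes of the expression table. Of these, 29 passed the filter on low values used for testing, at least 1 RPKM in at least 6 libraries. The exception was Cyp4a10. RPKM scales reads by gene length and by the mapped reads of a library. Comparisons between libraries still depend on the scaling, and the sum over all genes ran from 277634 to 369409 RPKM per library.

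The libraries fall into 3 groups: 6 from Apc Min mice treated with DM-aKG, 7 from Apc Min mice with a control treatment and 7 from untreated wild-type (WT) mice. The Min allele is a truncating point mutation of Apc, the tumour suppressor that restrains Wnt signalling, and mice that carry it develop intestinal adenomas. DM-aKG is the dimethyl ester of alpha-ketoglutarate, an intermediate of the TCA cycle. The titles of the samples call them tissue, while other label fields of all 3 groups name cultured intestinal organoids in low glutamine medium. The labels used here give no age, sex, dose or duration, and whether each library is an animal or culture of its own is not stated. The p-values therefore measure the spread between these libraries, which may in part be technical.

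Fatty acids enter mitochondria as carnitine esters and are shortened there by repeated rounds of dehydrogenation, hydration, dehydrogenation and thiolysis, with electrons passed on through the electron transfer flavoprotein. Peroxisomes shorten very long and branched chains by a parallel route. PPAR alpha is a nuclear receptor that binds fatty acids and their derivatives, pairs with a retinoid X receptor and switches on genes of both routes, and in the small intestine it is best known in enterocytes that meet dietary fat. PGC-1 alpha, the product of Ppargc1a, is a coactivator of PPAR alpha and of mitochondrial genes.

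Depth, estimated from the spacing of the lowest values, ran between 21.2 M and 29.3 M reads per library, and Pearson correlations between libraries over all genes were 0.916 to 0.996. Markers of cells other than epithelium were measured in all 3 groups. The summed level of 13 smooth muscle markers was 1005 to 1745 RPKM in DM-aKG, 442 to 1489 RPKM in control and 1137 to 1942 RPKM in WT libraries, and that of 10 endothelial markers was 67.2 to 97.8 RPKM in DM-aKG, 71.6 to 88.5 RPKM in control and 27.0 to 65.0 RPKM in WT libraries. Adipoq, a marker of fat cells, was at 40 RPKM or more in DM-aKG replicates 4 and 6, control replicate 6 and WT replicate 3. In such mixed material, fewer cells of a type and less RNA per cell cannot be told apart.

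Promoter sequences were matched by symbol in RefSeq's annotation of GRCm38.p6 for 26 of the 30 genes. Acaa2, Angptl4, Cyp4a10 and Decr1 were not matched. Each sequence printed here holds 300 bases around the gene start that RefSeq's table uses and is written 5′ to 3′ on the strand of the gene. Hadhb is shown because it and Hadha, which encode the subunits of the same enzyme, lie head to head on chromosome 5 and share 228 of these bases, given in capitals (chr5:30155003-30155302, forward strand).
Hadhb: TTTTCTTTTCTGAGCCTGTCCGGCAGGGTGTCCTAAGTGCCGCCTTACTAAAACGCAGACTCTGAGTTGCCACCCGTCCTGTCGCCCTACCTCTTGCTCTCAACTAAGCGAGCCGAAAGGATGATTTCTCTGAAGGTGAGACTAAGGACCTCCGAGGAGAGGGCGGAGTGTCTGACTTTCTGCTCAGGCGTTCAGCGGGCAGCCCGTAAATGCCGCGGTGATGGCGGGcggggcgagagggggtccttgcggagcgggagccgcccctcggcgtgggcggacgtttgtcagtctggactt
Cpt1a and Acadm are shown because they encode the entry step and a dehydrogenase of the mitochondrial route and hold the letters AGGTCA, the unit recognized by nuclear receptors such as PPAR alpha. Capitals mark that motif, which reads TGACCT where it lies on the opposite strand (Cpt1a at chr19:3323051-3323350, forward strand, and Acadm at chr3:153944594-153944893, reverse strand).
Cpt1a: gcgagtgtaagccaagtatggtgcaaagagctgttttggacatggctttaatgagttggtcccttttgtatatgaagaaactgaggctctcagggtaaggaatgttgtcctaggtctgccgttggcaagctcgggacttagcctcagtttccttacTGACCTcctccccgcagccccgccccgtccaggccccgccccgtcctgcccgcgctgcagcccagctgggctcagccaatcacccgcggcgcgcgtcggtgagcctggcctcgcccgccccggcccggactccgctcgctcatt
Acadm: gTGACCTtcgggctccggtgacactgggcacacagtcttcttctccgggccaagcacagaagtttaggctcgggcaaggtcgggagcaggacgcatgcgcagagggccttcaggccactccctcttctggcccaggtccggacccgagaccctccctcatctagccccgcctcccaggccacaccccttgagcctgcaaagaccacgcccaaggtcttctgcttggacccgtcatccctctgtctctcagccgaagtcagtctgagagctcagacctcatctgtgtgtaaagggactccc
Acaa1a and Acaa1b are shown because these copies on chromosome 9 were called in opposite directions for control over WT (Acaa1a at chr9:119341044-119341343, forward strand, and Acaa1b at chr9:119157044-119157343, reverse strand). The Acaa1a call was unstable, as given below. For Acaa1a and Cpt1a, GENCODE's annotation of the same build begins upstream of the printed windows, at 119339676 and 3322334, so these windows lie inside the longer gene models. In a global alignment of the Acaa1a and Acaa1b windows, 153 of 278 aligned positions were identical (55%, gaps left out). No unrelated promoters were aligned for comparison.
Acaa1a: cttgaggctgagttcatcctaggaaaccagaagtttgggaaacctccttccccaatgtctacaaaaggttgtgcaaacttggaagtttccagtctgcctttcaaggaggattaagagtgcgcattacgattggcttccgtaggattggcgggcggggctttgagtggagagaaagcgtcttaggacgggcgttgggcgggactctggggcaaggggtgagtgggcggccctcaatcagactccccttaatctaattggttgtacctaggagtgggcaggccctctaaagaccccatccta
Acaa1b: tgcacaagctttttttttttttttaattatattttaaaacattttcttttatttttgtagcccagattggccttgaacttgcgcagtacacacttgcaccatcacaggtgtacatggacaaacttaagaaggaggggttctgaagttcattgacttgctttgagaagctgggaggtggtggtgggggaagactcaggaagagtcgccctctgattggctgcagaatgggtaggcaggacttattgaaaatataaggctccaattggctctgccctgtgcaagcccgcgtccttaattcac
On either strand, AGGTCA stood in 4 of the 26 matched promoters (Acadm, Acadvl, Cpt1a and Plin2), against 16.3% of 32851 promoters of the same length. The direct repeat AGGTCANAGGTCA, where N is any base, was in 0 of the 26 and in 0.0396% of all promoters. A relaxed form, NGGNCANAGGNCA, which includes the exact one, was in 0 of the 26 and in 0.798% of all. These are matches of letters in a short window.

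Between DM-aKG and control Apc Min libraries, the question of the series title being what alpha-ketoglutarate changes in this material, 5 of the 29 tested genes were higher with DM-aKG. They were Ppara, Ppargc1a, the medium-chain dehydrogenase Acadm, the trifunctional protein subunit Hadhb and the peroxisomal bifunctional enzyme Ehhadh. Calls are at an adjusted p under 0.05 from limma with Benjamini-Hochberg adjustment over the 12433 genes tested. The 5 genes are 17.2% of the 29, while 5.91% of all tested genes were called higher and 27.6% lower. By the same test 0 of the 29 were lower, and at an unadjusted p under 0.05 there were 12 higher and 0 lower, against 8.85% and 35.1% of all tested genes. The log2 change, a difference of mean log2(RPKM + 1), had a median of 0.35 over the 29 genes and of -0.14 over all genes tested, and it was positive in 26 of the 29. Changes on this scale understate those of genes with low levels. The ranges of the DM-aKG and control libraries overlapped for all 29 genes, while 0.732% of all tested genes had DM-aKG libraries all above and 8.19% all below the control libraries.

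The scaling of the libraries moved this count. Quantile normalization and median-of-ratios scaling brought the median of all genes to 0.02, from where 14.1% and 12.2% of all tested genes were higher and 14.9% and 13.8% lower. Under these scalings 13 and 14 of the 29 genes were higher with DM-aKG and 0 lower. Added by both were Cpt2, Acadvl, Etfa, Etfdh, Acaa2, Eci1 and Ech1.

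Control Apc Min libraries differed from WT libraries in both directions. Of the 29 genes 10 were higher in control Apc Min: Ppara, the carnitine shuttle genes Cpt1a and Slc25a20, Acadl, Acads, Acaa2, Eci2, Acaa1b, Acot1 and Acot2. Another 7 were lower: Ppargc1a, Cpt2, Etfa, Eci1, Decr1, Ehhadh and Acaa1a. The higher genes are 34.5% of the 29, against 43.2% of all tested genes, and the lower ones 24.1%, against 15.7%. The median log2 change was 0.03 over the 29 genes and 0.20 over all genes. For Acadl, Eci2, Acaa1b, Acot1 and Acot2 every control library lay above every WT library (20.4% of all tested genes), and for Etfa, Decr1 and Ehhadh every control library lay below (5.73%). Under quantile normalization 26.1% of all tested genes were higher and 26.9% lower, with 9 and 7 of the 29, and under median-of-ratios scaling 26.4% and 27.5%, with 7 and 11.

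DM-aKG Apc Min libraries had 12 of the 29 genes higher than WT libraries and 2 lower (41.4% and 6.9%, against 21.9% and 17.3% of all tested genes). The higher ones were Ppara, Cpt1a, Slc25a20, Acadl, Acads, Etfdh, Acaa2, Eci2, Acaa1b, Acot1, Acot2 and Angptl4, and the lower ones Etfa and Decr1. The median log2 change was 0.38 over the 29 genes and 0.05 over all genes. For Ppara, Etfdh, Acaa2, Eci2, Acaa1b, Acot1 and Acot2 every DM-aKG library lay above every WT library, which held for 9.36% of all tested genes, while 7.79% lay all below. The scalings gave 18.4% and 19.4% of all tested genes higher and 19.5% and 21.2% lower, with 14 and 12 of the 29 higher and 1 and 2 lower. The 3 comparisons share libraries, so their values stand side by side and are not independent.

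**Figure D1:**
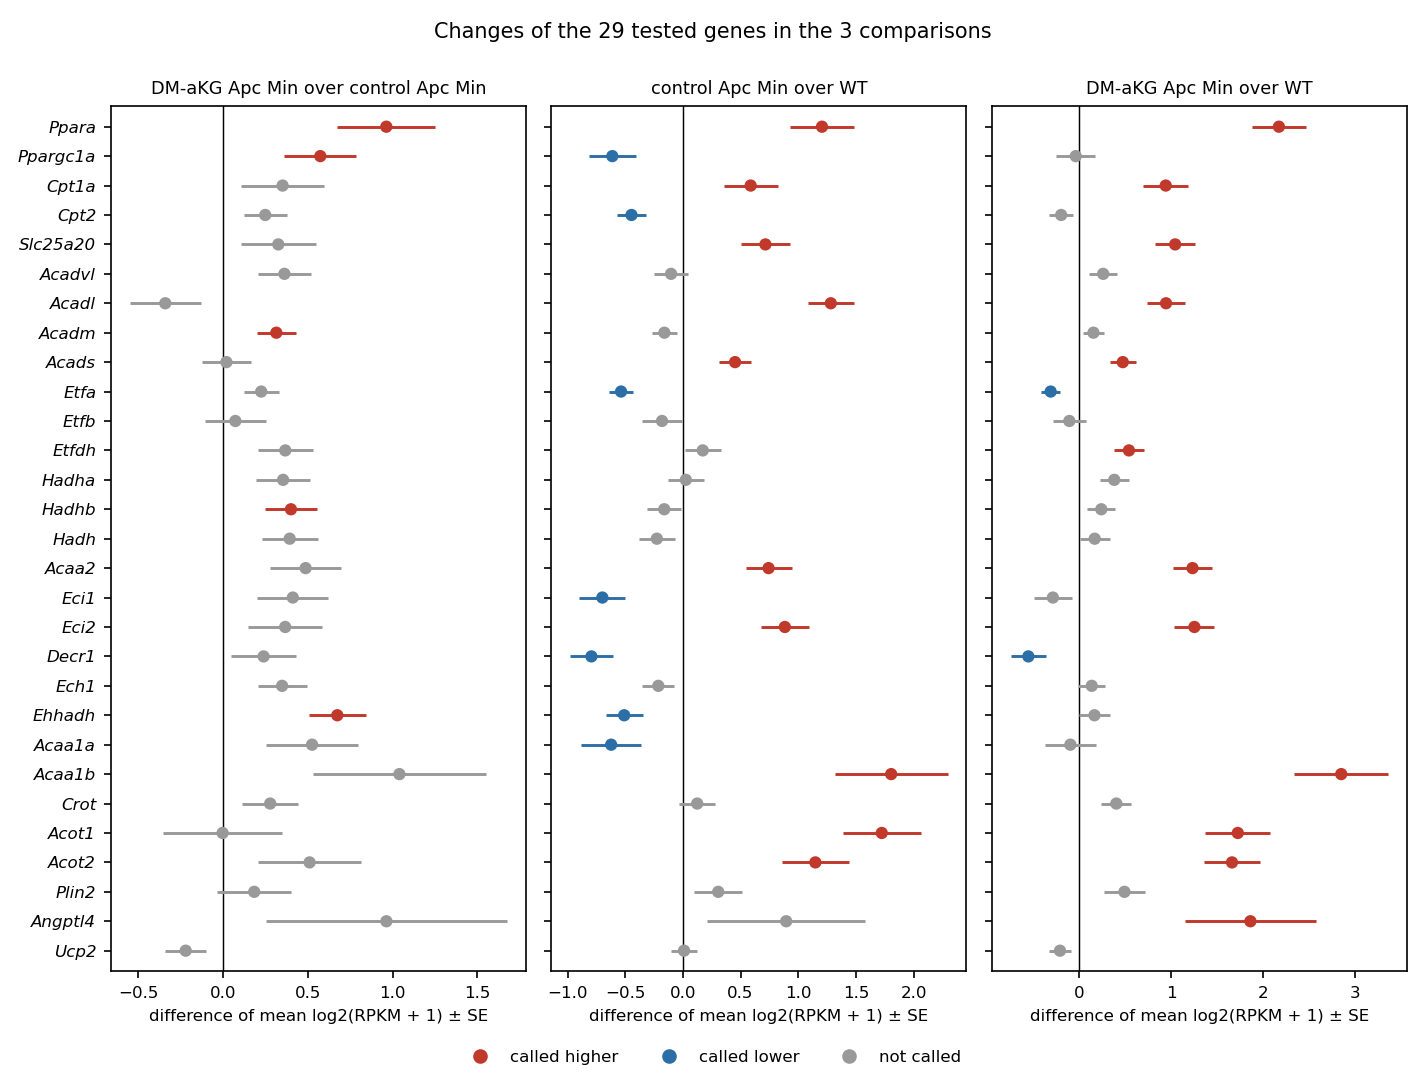
Log2 change of the 29 tested genes in the 3 comparisons, as the difference of mean log2(RPKM + 1) with its standard error from limma (x axis), genes down the page in order of their role. Red and blue points passed the test as higher or lower and grey ones did not: 5 and 0 for DM-aKG over control Apc Min, 10 and 7 for control Apc Min over WT, 12 and 2 for DM-aKG Apc Min over WT.

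Among the regulators, Ppara, on chromosome 15 (GRCm38 positions 85734983 to 85802819), rose in both comparisons with the WT libraries and rose further with DM-aKG. Its lowest, median and highest levels were 19.0, 26.3 and 55.4 RPKM in DM-aKG libraries, 3.83, 15.2 and 23.0 RPKM in control libraries and 4.13, 5.49 and 6.69 RPKM in WT libraries. All DM-aKG libraries lay above all WT libraries, while control replicate 6, at 3.83 RPKM, lay below them and the other control libraries above. The log2 change was 0.96 ± 0.29 for DM-aKG over control (SE, limma adjusted p = 0.0144), 1.21 ± 0.28 for control over WT (adjusted p = 0.00101) and 2.17 ± 0.29 for DM-aKG over WT (adjusted p = 2e-05). With the mean of the smooth muscle markers as a covariate, control over WT was 0.46 and not called (adjusted p = 0.361, over alternatives 5.71e-06 to 0.361). The same covariate gave 1.58 ± 0.33 for DM-aKG over control (adjusted p = 0.00262). That call was lost in replicates 1 to 4 alone, at 0.48 (adjusted p = 0.157), in replicates 5 to 7 alone, at 1.74 (adjusted p = 0.0623), and with the epithelial markers as a covariate, at 0.68 (adjusted p = 0.216). Over all alternatives its adjusted p was 0.00262 to 0.216.

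Ppargc1a went the other way in control Apc Min. It stood at 4.11, 7.58 and 9.69 RPKM in DM-aKG libraries, at 2.46, 4.89 and 7.69 RPKM in control libraries and at 5.06, 7.88 and 9.73 RPKM in WT libraries, all 3 ranges overlapping. The changes were 0.57 ± 0.21 for DM-aKG over control (adjusted p = 0.0426) and -0.61 ± 0.20 for control over WT (adjusted p = 0.0145), while DM-aKG over WT was -0.04 ± 0.21 (adjusted p = 0.904). The call with DM-aKG was lost when DM-aKG replicate 1, 2, 4, 5 or 6 or control replicate 1, 2, 4 or 6 was left out, at an adjusted p of 0.0539 to 0.0966 (over all alternatives 0.00987 to 0.959).

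The carnitine shuttle carries long chains into the mitochondrion, and its parts did not move together. Cpt1a, the rate-limiting acyltransferase of the outer membrane, had 34.1, 49.4 and 101 RPKM in DM-aKG libraries, 25.5, 40.2 and 59.5 RPKM in control libraries and 15.6, 29.3 and 38.4 RPKM in WT libraries. Both Apc Min groups overlapped with WT, and the change was 0.94 ± 0.24 for DM-aKG over WT (adjusted p = 0.00546) and 0.59 ± 0.23 for control over WT (adjusted p = 0.0372). The call in control libraries was lost without control replicate 2, 3, 5 or 7 or WT replicate 1 or 3, at adjusted p-values of 0.051 to 0.0923 (over alternatives 0.0159 to 0.647), and under both other scalings. Slc25a20, the carrier that exchanges acylcarnitine across the inner membrane, had 34.4, 50.1 and 116 RPKM in DM-aKG libraries, 28.7, 44.4 and 69.6 RPKM in control libraries and 20.9, 25.2 and 35.8 RPKM in WT libraries. Its change was 1.04 ± 0.22 for DM-aKG over WT (adjusted p = 0.0012), a call kept under all 34 alternatives, and 0.72 ± 0.21 for control over WT (adjusted p = 0.0068).

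Cpt2, which returns the chain to coenzyme A inside the mitochondrion, fell instead in control Apc Min. Its levels were 20.6, 27.0 and 33.8 RPKM in DM-aKG libraries, 16.8, 22.0 and 28.4 RPKM in control libraries and 25.8, 31.1 and 32.4 RPKM in WT libraries. The change was -0.45 ± 0.12 for control over WT (adjusted p = 0.00406), with control replicates 1 and 2 above the lowest WT library, and -0.20 ± 0.13 for DM-aKG over WT (adjusted p = 0.225). For DM-aKG over control, the 3 shuttle genes had changes of 0.25 to 0.35 and adjusted p-values of 0.137 to 0.28.

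The acyl-CoA dehydrogenases take the first step of each round and differ in the chain length they accept. Acadl, for long chains (chromosome 1, 66830839 to 66863277), had 42.7, 62.9 and 122 RPKM in DM-aKG libraries, 67.4, 86.4 and 119 RPKM in control libraries and 29.7, 33.6 and 49.6 RPKM in WT libraries. Control libraries all lay above WT libraries (change 1.28 ± 0.20, adjusted p = 2.27e-05), a call kept under all 34 alternatives, and DM-aKG over WT was 0.94 ± 0.21 (adjusted p = 0.00182). Among the 29 genes Acadl had the most negative change for DM-aKG over control, -0.34 ± 0.21, which did not pass (adjusted p = 0.222). Acads, for short chains, had 27.5, 32.3 and 37.8 RPKM in DM-aKG libraries, 24.1, 32.7 and 37.1 RPKM in control libraries and 17.6, 20.9 and 33.7 RPKM in WT libraries. It was higher in both Apc Min groups (0.47 ± 0.14, adjusted p = 0.0134, for DM-aKG over WT and 0.45 ± 0.14, adjusted p = 0.00802, for control over WT), with overlap.

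Acadm, for medium chains and deficient in the commonest inherited defect of the pathway, was among the 5 genes higher with DM-aKG. It had 40.6, 60.1 and 71.7 RPKM in DM-aKG libraries, 35.9, 45.9 and 55.1 RPKM in control libraries and 46.5, 52.4 and 57.6 RPKM in WT libraries. All DM-aKG libraries except replicate 2, at 40.6 RPKM, lay above all control libraries, and the change was 0.32 ± 0.12 for DM-aKG over control (adjusted p = 0.0419). That call was lost without DM-aKG replicate 1, 3, 4, 5 or 6, control replicate 3, 4, 5 or 6 or WT replicate 6, at adjusted p-values of 0.0502 to 0.108 (over alternatives 0.00333 to 0.644). Acadvl, for very long chains, ranged from 29.8 to 77.9 RPKM over the 3 groups and passed in no comparison (DM-aKG over control 0.36 ± 0.15, adjusted p = 0.0767). Its exons overlap Dvl2 on the opposite strand, as those of Etfdh, Hadha, Eci2, Acaa1a, Acaa1b, Crot and Ucp2 overlap other genes, and without a stated strand setting reads from such partners cannot be told apart.

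The electron transfer flavoprotein passes electrons from these dehydrogenases to the respiratory chain, and its genes separated. Etfa, the alpha subunit, had 42.7, 54.2 and 65.2 RPKM in DM-aKG libraries, 35.4, 46.2 and 51.5 RPKM in control libraries and 60.9, 64.4 and 77.2 RPKM in WT libraries. Every control library lay below every WT library (change -0.54 ± 0.10, adjusted p = 0.00014), and DM-aKG over WT was -0.31 ± 0.10 (adjusted p = 0.0238). The call in the DM-aKG libraries was lost without DM-aKG replicate 2 or WT replicate 3, at adjusted p-values of 0.0542 to 0.067 (over alternatives 0.011 to 0.431). Etfdh, the membrane-bound oxidoreductase that takes over the electrons, had 30.5, 35.6 and 75.0 RPKM in DM-aKG libraries, 22.6, 30.8 and 38.1 RPKM in control libraries and 23.7, 27.6 and 29.1 RPKM in WT libraries. It was higher in DM-aKG than in WT libraries without overlap (0.54 ± 0.16, adjusted p = 0.0135). Etfb, the beta subunit, ranged from 39.0 to 103 RPKM and passed in no comparison.

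**Figure D2:**
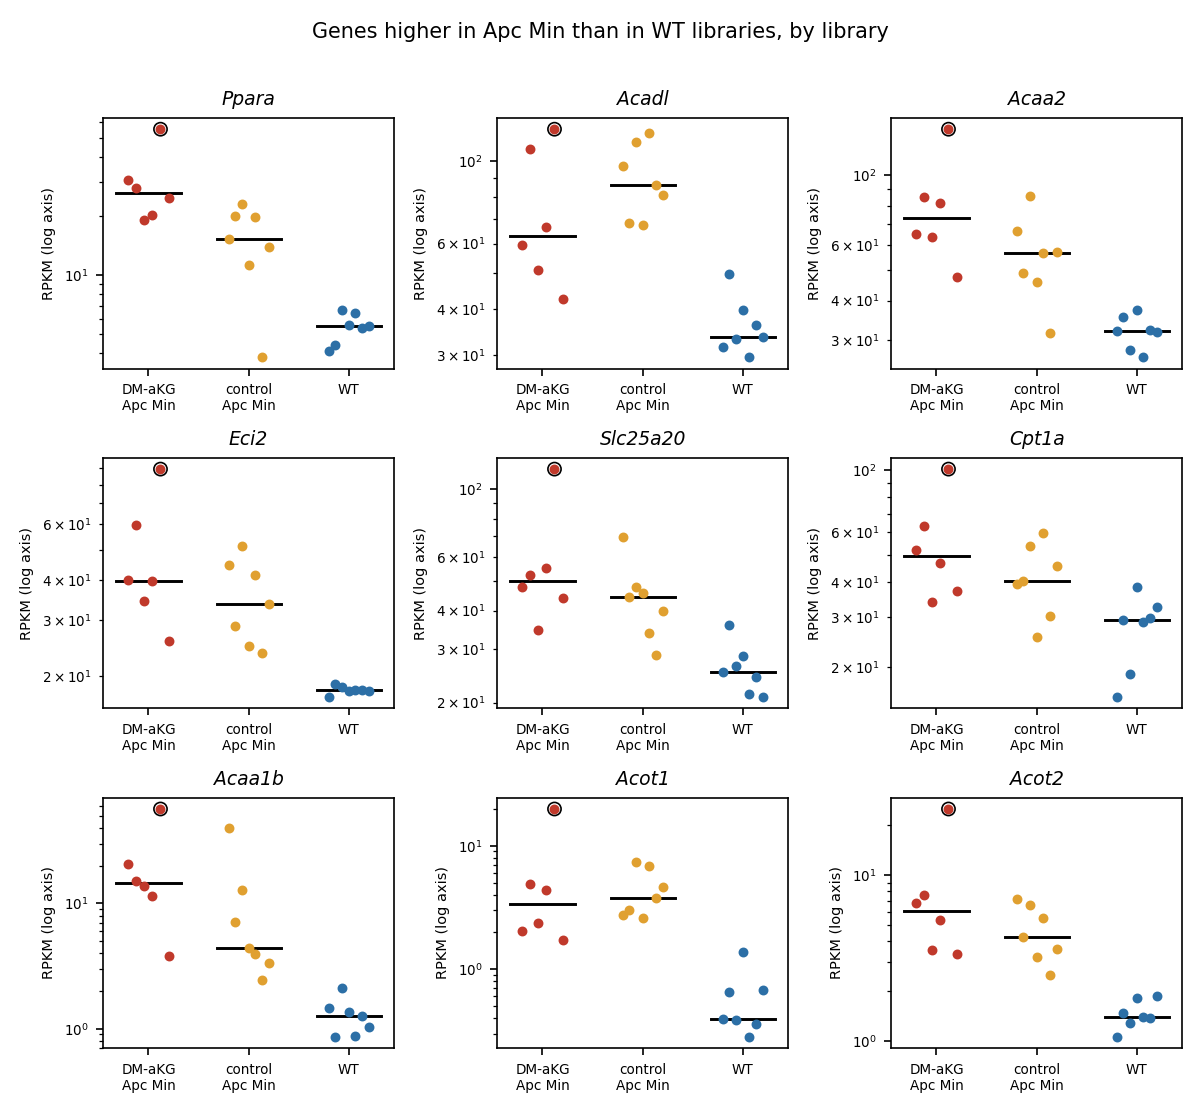
Level in each library of 9 genes that were higher in Apc Min than in WT libraries (RPKM, log axis), with 1 point per library and a bar at the median of DM-aKG Apc Min (n = 6), control Apc Min (n = 7) and WT (n = 7). DM-aKG replicate 5, ringed, is the highest of the 20 libraries in each panel, for example at 55.4 RPKM for Ppara, where the WT libraries end at 6.69 RPKM.

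The later steps of the mitochondrial round are run by the trifunctional protein for long chains and by separate enzymes for shorter ones. Hadhb, the thiolase subunit of the trifunctional protein, had 47.0, 61.5 and 107 RPKM in DM-aKG libraries, 39.2, 48.2 and 57.9 RPKM in control libraries and 47.6, 55.4 and 63.0 RPKM in WT libraries. All ranges overlapped, and the change for DM-aKG over control was 0.40 ± 0.15 (adjusted p = 0.0465). Its call was lost without DM-aKG replicate 2, 4 or 5, control replicate 2, 4, 5, 6 or 7 or WT replicate 1, 2, 4, 5, 6 or 7, at adjusted p-values of 0.0504 to 0.129 (over alternatives 0.0106 to 0.371). Hadha, the subunit with the hydratase and dehydrogenase activities that shares the promoter printed above, had a change of 0.35 ± 0.16 (adjusted p = 0.0926). The ratio of Hadha to Hadhb in RPKM stayed within 0.898 to 1.33 over the 20 libraries, with medians of 1.18 in DM-aKG, 1.21 in control and 1.09 in WT libraries.

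Acaa2, the mitochondrial thiolase for medium chains, had 47.6, 73.1 and 140 RPKM in DM-aKG libraries, 31.6, 56.7 and 85.9 RPKM in control libraries and 26.5, 32.1 and 37.4 RPKM in WT libraries. All DM-aKG libraries lay above all WT libraries, with a change of 1.23 ± 0.21 (adjusted p = 0.000189), and control over WT was 0.74 ± 0.20 with overlap (adjusted p = 0.00348). Hadh, the short-chain hydroxyacyl-CoA dehydrogenase and the most abundant of the oxidation enzymes here, had medians of 241 RPKM in DM-aKG, 190 RPKM in control and 184 RPKM in WT libraries and passed in no comparison (DM-aKG over control 0.39 ± 0.16, adjusted p = 0.0707).

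Unsaturated fatty acids need auxiliary enzymes that shift or remove a double bond, and these split by gene. Eci2, an enoyl-CoA isomerase found in peroxisomes and mitochondria, had 25.8, 39.9 and 89.6 RPKM in DM-aKG libraries, 23.7, 33.8 and 51.3 RPKM in control libraries and 17.1, 18.1 and 18.9 RPKM in WT libraries. Neither Apc Min group overlapped with the WT group (1.25 ± 0.22, adjusted p = 0.000247, for DM-aKG and 0.88 ± 0.21, adjusted p = 0.00128, for control libraries). Its mitochondrial counterpart Eci1 had 12.4, 20.6 and 29.2 RPKM in DM-aKG libraries, 9.04, 15.9 and 22.0 RPKM in control libraries and 19.7, 22.6 and 33.0 RPKM in WT libraries. It was lower in control than in WT libraries with overlap (-0.70 ± 0.20, adjusted p = 0.0055). Decr1, the dienoyl-CoA reductase of mitochondria, had 9.96, 18.9 and 22.1 RPKM in DM-aKG libraries, 8.52, 16.6 and 19.9 RPKM in control libraries and 21.3, 24.4 and 35.6 RPKM in WT libraries. It was lower without overlap in control libraries (-0.79 ± 0.18, adjusted p = 0.00108) and with overlap in DM-aKG libraries (-0.55 ± 0.19, adjusted p = 0.028). The call in DM-aKG libraries was lost without DM-aKG replicate 2 or WT replicate 1 or 3, at adjusted p-values of 0.06 to 0.0825 (over alternatives 0.0142 to 0.604). Ech1, a dienoyl-CoA isomerase, ranged from 49.1 to 112 RPKM and passed in no comparison.

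**Figure D3:**
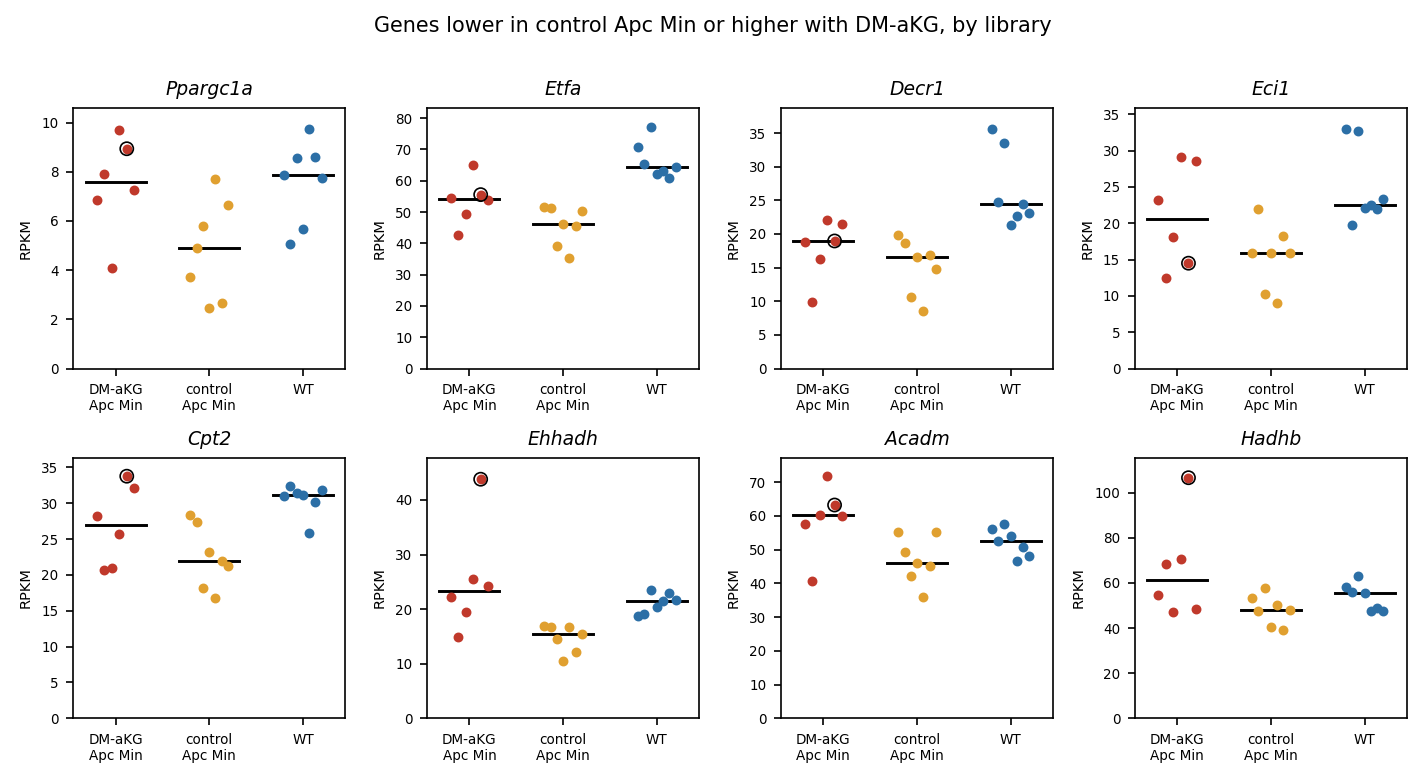
Level in each library of 8 genes that were lower in control Apc Min than in WT libraries, higher with DM-aKG, or both (RPKM, axes from 0), with 1 point per library, a bar at each group's median and DM-aKG replicate 5 ringed. The control libraries of Etfa, Decr1 and Ehhadh all lie below the WT libraries, with Ehhadh at 10.4 to 16.9 RPKM against 18.8 to 23.6 RPKM.

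In the peroxisomal route, Ehhadh (chromosome 16, 21761287 to 21787807) combines hydratase and dehydrogenase and is a long-known PPAR alpha target in mouse liver. It had 14.9, 23.3 and 43.8 RPKM in DM-aKG libraries, 10.4, 15.5 and 16.9 RPKM in control libraries and 18.8, 21.5 and 23.6 RPKM in WT libraries. Control libraries all lay below WT libraries (-0.51 ± 0.16, adjusted p = 0.01), and DM-aKG over control was 0.67 ± 0.17 (adjusted p = 0.00401). DM-aKG replicate 2, at 14.9 RPKM, lay among the control libraries, and the other DM-aKG libraries lay above all of them. The adjusted p over alternatives was 0.000449 to 0.204, with the call lost in replicates 1 to 4 alone, at 0.46, and with the epithelial markers as a covariate, at 0.37. DM-aKG over WT was 0.17 ± 0.17 (adjusted p = 0.443). Acaa1a and Acaa1b encode peroxisomal thiolases. Acaa1b had 3.81, 14.4 and 56.7 RPKM in DM-aKG libraries, 2.46, 4.39 and 40.2 RPKM in control libraries and 0.861, 1.26 and 2.10 RPKM in WT libraries, so that neither Apc Min group overlapped with WT. Its change was 2.85 ± 0.51 for DM-aKG over WT (adjusted p = 0.000352) and 1.81 ± 0.49 for control over WT (adjusted p = 0.00387).

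Acaa1a, the more abundant copy, had 52.2, 66.2 and 73.6 RPKM in DM-aKG libraries, 20.9, 44.5 and 91.9 RPKM in control libraries and 48.8, 60.9 and 107 RPKM in WT libraries. It was called lower in control than in WT libraries, with overlap (-0.62 ± 0.26, adjusted p = 0.0473). Leaving out a single library ended the call in 15 cases, namely each of the 6 DM-aKG libraries, control replicates 3, 5, 6 and 7 and WT replicates 1, 2, 3, 4 and 6, at adjusted p-values of 0.0506 to 0.121 (over alternatives 0.00429 to 0.604). Of the 50-base stretches of Acaa1a transcripts 34% also occur in Acaa1b, and 35.5% the other way round, so reads may have been divided between the copies. Crot, the peroxisomal carnitine octanoyltransferase, ranged from 25.8 to 62.2 RPKM and passed in no comparison.

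The thioesterases Acot1 and Acot2 release fatty acids from coenzyme A in the cytosol and in mitochondria, and both are induced by PPAR alpha in mouse liver. The genes are neighbours on chromosome 12, Acot2 at 83987861 to 83993873 and Acot1 at 84009490 to 84018371. Acot1 had 1.71, 3.36 and 19.9 RPKM in DM-aKG libraries, 2.61, 3.79 and 7.33 RPKM in control libraries and 0.282, 0.391 and 1.37 RPKM in WT libraries. Acot2 had 3.37, 6.09 and 25.1 RPKM in DM-aKG libraries, 2.51, 4.23 and 7.18 RPKM in control libraries and 1.06, 1.41 and 1.88 RPKM in WT libraries. For both genes all Apc Min libraries lay above all WT libraries. Acot1 changed by 1.72 ± 0.35 for DM-aKG over WT (adjusted p = 0.000951) and by 1.72 ± 0.34 for control over WT (adjusted p = 0.000234, a call kept under all 34 alternatives). Acot2 changed by 1.66 ± 0.30 (adjusted p = 0.000366) and 1.15 ± 0.29 (adjusted p = 0.00217). For DM-aKG over control, Acot1 was at -0.00 ± 0.35 and Acot2 at 0.51 ± 0.30, and neither passed. Of their 50-base stretches 23.7% in Acot1 and 24.5% in Acot2 occur in the other gene, so the division of reads between them is uncertain.

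Among the other PPAR alpha targets, Angptl4 passed in 1 comparison, and Plin2 and Ucp2 in none. Angptl4, a secreted inhibitor of lipoprotein lipase, had 5.47, 111 and 162 RPKM in DM-aKG libraries, 6.96, 19.7 and 133 RPKM in control libraries and 9.44, 15.2 and 52.5 RPKM in WT libraries. DM-aKG replicate 6 had the lowest level of all 20 libraries, while the other 5 DM-aKG libraries lay above all WT libraries. The change for DM-aKG over WT was 1.86 ± 0.71 (adjusted p = 0.0445), and it was lost without any of DM-aKG replicates 1 to 5 or WT replicates 1, 2, 3, 5, 6 or 7, at adjusted p-values of 0.0548 to 0.107 (over alternatives 0.00195 to 0.569). Plin2, a coat protein of lipid droplets, ranged from 17.6 to 75.2 RPKM, and Ucp2, an uncoupling protein of the inner mitochondrial membrane, from 138 to 261 RPKM. Neither passed in any comparison, with Ucp2 at -0.22 ± 0.12 for DM-aKG over control (adjusted p = 0.167).

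Cyp4a10, an omega-hydroxylase and one of the most strongly induced PPAR alpha targets of mouse liver, was not tested in the main fit. With no filter on low values it passed in no comparison. Its limma adjusted p was 0.412 for DM-aKG over control, 0.337 for control over WT and 0.0774 for DM-aKG over WT. It had 0.089, 0.303 and 10.5 RPKM in DM-aKG libraries and 0.0192, 0.263 and 1.36 RPKM in control libraries. In WT libraries it was listed at 0 except for 0.000237 RPKM in WT replicate 6. It was above 0 in all 13 Apc Min libraries, and its close relative Cyp4a14 stayed at 0.0188 RPKM or less in all 20.

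One library stood apart in this set of genes. DM-aKG replicate 5 had the highest level of all 20 libraries for 21 of the 30 genes, including Ppara (55.4 RPKM), Slc25a20 (116 RPKM), Hadha (142 RPKM), Ehhadh (43.8 RPKM), Acaa1b (56.7 RPKM) and Cyp4a10 (10.5 RPKM). No other library was highest for more than 3. Without it, 2 of the 29 genes were higher for DM-aKG over control, Ppara (0.77, adjusted p = 0.0456) and Ehhadh (0.50, adjusted p = 0.00704), and the median over the 29 was 0.21. In that fit 4.64% of all tested genes were higher and 23.1% lower. The count was also 2 without DM-aKG replicate 4 or control replicate 4 or 6, 3 without DM-aKG replicate 1, control replicate 2 or 5 or WT replicate 6, and 9 without control replicate 1. Over all fits that left out 1 library, 4.61 to 7.1% of all tested genes were higher. The summed epithelial markers of DM-aKG replicate 5, 4317 RPKM, and its macrophage markers, 65.1 RPKM, were the lowest of the 20 libraries. Its ileum markers (4016 RPKM), fat cell markers (113 RPKM) and skeletal muscle markers (4.47 RPKM) were the lowest of its group. Its proximal small intestine markers, 2920 RPKM, lay within the group's range of 1259 to 3715 RPKM. Its enterocyte markers (18516 RPKM) and smooth muscle markers (1401 RPKM) lay within the range of the other DM-aKG libraries. Whether these bear on its levels was not tested. Control replicate 1 was the highest of its group for 16 of the 30 genes, and control replicates 5 and 6 were the lowest for 11 each.

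**Figure D4:**
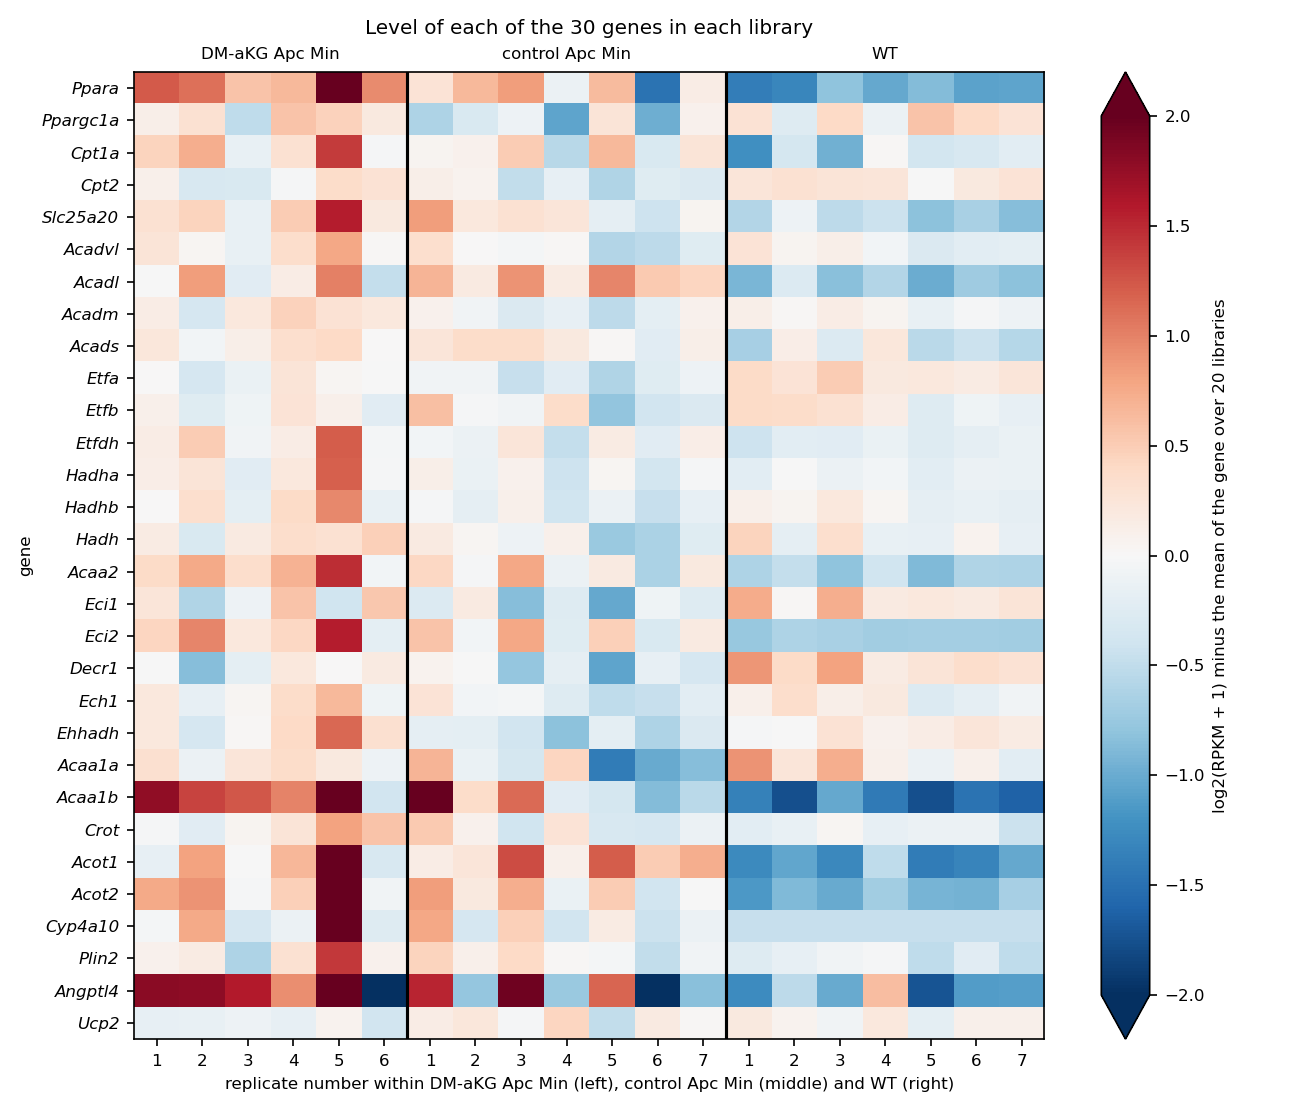
Level of each of the 30 genes (rows, in order of role) in each of the 20 libraries (columns, by group and replicate number), as log2(RPKM + 1) minus the gene's mean over the 20 libraries, with red above and blue below the mean and the scale ending at 2 on either side. DM-aKG replicate 5 is the darkest red column, highest for 21 of the 30 genes, and Ppara, Acaa1b, Acot1 and Acot2 are blue in the WT columns.

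Libraries with replicate numbers 1 to 4 and 5 to 7 were also compared apart, a split made knowing that the ribosomal transcript Rn45s had 3836 to 6558 RPKM in the first set and 1078 to 3621 RPKM in the second. The labels name no batch. Over the 29 genes the median change for DM-aKG over control was 0.13 in replicates 1 to 4 and 0.65 in replicates 5 to 7. The change was larger in replicates 5 to 7 for 26 genes. That set holds only replicates 5 and 6 of DM-aKG, beside control replicates 5, 6 and 7. DM-aKG replicate 5 was the highest of all 20 libraries for 21 of the 30 genes. Control replicates 5 and 6 were the lowest of their group for 11 each. Called higher were 0 genes in replicates 1 to 4, where Ucp2 was called lower (-0.35, adjusted p = 0.0438), and 6 in replicates 5 to 7. These 6 were Crot, Acaa1a, Hadh, Cpt2, Ehhadh and Acadvl, of which only Ehhadh was also called higher in the fit of all libraries. Of all tested genes 3.25% were higher and 14.6% lower in replicates 1 to 4, and 3.06% and 22.4% in replicates 5 to 7. The difference between the sets itself passed limma's interaction test for 0 of the 29 genes and for 0.209% of all tested genes, with 10 of the 29 and 11.7% of all tested genes at an unadjusted p under 0.05. The smallest adjusted p was 0.181, for Crot (-0.11 in replicates 1 to 4 and 0.95 in replicates 5 to 7). For the comparisons with WT the interaction passed for 0% of all tested genes.

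Genes that work beside the 30 were followed in 5 lists of the same pathways, from which at most 3 per comparison are named by smallest adjusted p. For DM-aKG over control, 5.91% of all tested genes were higher and 27.6% lower, and at an unadjusted p under 0.05 8.85% and 35.1%. For control over WT the shares were 43.2% and 15.7%, and for DM-aKG over WT 21.9% and 17.3%. Among 12 partners of PPAR alpha and PGC-1 alpha, 1 was higher with DM-aKG than in control libraries, the retinoid X receptor Rxra (0.34 ± 0.11, adjusted p = 0.024), and 0 were lower (3 higher and 1 lower at an unadjusted p under 0.05). Against WT, control libraries had 3 higher and 4 lower. The related receptors moved in opposite directions there. Pparg had 6.98, 8.68 and 16.1 RPKM in control and 1.91, 2.96 and 4.85 RPKM in WT libraries (1.39 ± 0.20, adjusted p = 1.03e-05). Ppard had 14.4, 16.6 and 36.1 RPKM in control and 31.1, 37.4 and 42.9 RPKM in WT libraries (-0.97 ± 0.14, adjusted p = 9.1e-06), and Esrra, a nuclear receptor that works with PGC-1 alpha, also fell (-0.76 ± 0.18, adjusted p = 0.00109). DM-aKG libraries had 3 higher and 1 lower than WT, with Pparg at 0.86 ± 0.21 (adjusted p = 0.00371) and Ppard at -0.89 ± 0.15 (adjusted p = 0.000154).

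Of 25 further PPAR alpha targets 20 could be tested. With DM-aKG 4 were higher than in control libraries, Mgll, Slc22a5 and Slc27a4 among them, and 0 lower (20% and 0%, against 5.91% and 27.6% of all tested genes). At an unadjusted p under 0.05 there were 8 and 1, against 8.85% and 35.1% of all tested genes. Mgll, the lipase that cleaves monoacylglycerol, changed by 0.65 ± 0.21 (adjusted p = 0.0194), and Slc22a5, the carnitine transporter of the plasma membrane, by 0.69 ± 0.24 (adjusted p = 0.0322). Control over WT gave 6 higher and 2 lower (30% and 10%, against 43.2% and 15.7% of all tested genes). DM-aKG over WT gave 10 higher and 2 lower (50% and 10%, against 21.9% and 17.3%). Pdk4, the kinase that shuts off pyruvate dehydrogenase, had 14.1, 75.3 and 338 RPKM in DM-aKG, 3.15, 14.8 and 127 RPKM in control and 0.993, 1.59 and 2.01 RPKM in WT libraries, with both Apc Min groups above WT (4.996 ± 0.73, adjusted p = 5.91e-05, and 3.50 ± 0.70, adjusted p = 0.000318). For DM-aKG over control it did not pass (1.496 ± 0.73, adjusted p = 0.122). Slc27a4, the fatty acid transport protein of the enterocyte, was lower than WT in both Apc Min groups (-0.73 ± 0.25, adjusted p = 0.0237, and -1.39 ± 0.24, adjusted p = 5.24e-05). Fabp1, the liver-type fatty acid binding protein, passed in no comparison and spread from 4.67 to 962 RPKM within the WT libraries.

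**Figure D5:**
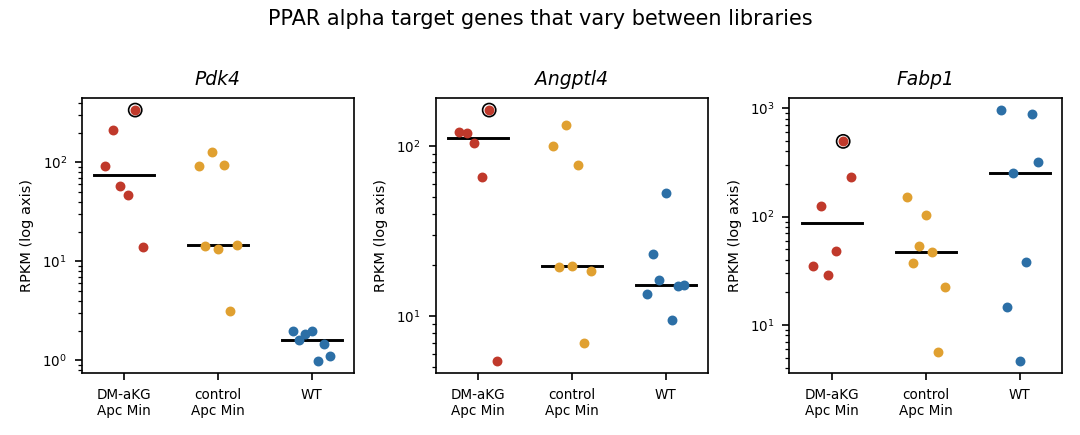
Level in each library of 3 PPAR alpha target genes (RPKM, log axis), with 1 point per library, a bar at each group's median and DM-aKG replicate 5 ringed. Pdk4 lies at 3.15 RPKM or more in all Apc Min libraries and at 2.01 RPKM or less in all WT libraries, and within both Apc Min groups Pdk4, Angptl4 and Fabp1 spread over more than 10-fold.

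Other genes of mitochondrial oxidation moved in both directions. Of 31 tested, 2 were higher and 7 lower with DM-aKG than in control libraries (6.45% and 22.6%). These shares lie near the 5.91% and 27.6% of all tested genes. The lowest adjusted p-values belonged to the thioesterase Acot9 (-0.97 ± 0.14, adjusted p = 2.59e-05) and the acyl-CoA synthetase Acsl3 (-0.99 ± 0.16, adjusted p = 0.000114), and the higher genes, named here after their values were seen, were Acacb and Mlycd, which make and remove the malonyl-CoA that holds back Cpt1a. Control over WT had 8 higher and 6 lower, among them Acsl3 (2.42 ± 0.16, adjusted p = 3.79e-10) and the synthetase Acsl5 (-1.48 ± 0.20, adjusted p = 4.5e-06), and DM-aKG over WT 9 higher and 5 lower. Of 23 further peroxisomal genes 5 were higher and 1 lower with DM-aKG, led by catalase, Cat (0.83 ± 0.20, adjusted p = 0.00301), and the thioesterase Acot4 (0.78 ± 0.19, adjusted p = 0.00328). Control over WT had 4 higher and 5 lower (17.4% and 21.7%) and DM-aKG over WT 9 higher and 3 lower (39.1% and 13%). Of all tested genes, 43.2% were higher and 15.7% lower for control over WT. For DM-aKG over WT these shares were 21.9% and 17.3%. Acox2, the oxidase of branched chains and bile acid precursors, had 7.85, 12.0 and 13.6 RPKM in DM-aKG, 5.12, 7.34 and 12.7 RPKM in control and 0.849, 1.63 and 2.12 RPKM in WT libraries (2.31 ± 0.18, adjusted p = 6e-08, and 1.89 ± 0.18, adjusted p = 3.32e-08, over WT). Of 8 ketone body genes 0 were higher and 1 lower with DM-aKG, Bdh2, with the same counts at an unadjusted p under 0.05, and each Apc Min group had 3 higher and 2 lower than WT.

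Markers of cell types moved with the same comparisons. The shares of all tested genes given above for each comparison stand beside these counts. Of 20 markers of absorptive enterocytes, which oxidize dietary fatty acids, 10 were higher and 0 lower with DM-aKG than in control libraries (12 and 0 at an unadjusted p under 0.05), and 1 was higher and 12 lower in control than in WT libraries. Their summed level was 16500 to 27027 RPKM in DM-aKG, 7954 to 22958 RPKM in control and 13280 to 30910 RPKM in WT libraries. All 12 tested smooth muscle markers were higher with DM-aKG than in control libraries, and all 12 were lower in control than in WT libraries. With their mean as a covariate, 3 of the 29 genes were higher with DM-aKG and 0 lower, against 1.75% and 18.8% of all tested genes. For control over WT 3 were then higher (Acadl, Acaa1b and Acot1) and 1 lower (Ppargc1a), against 23.6% and 4.59% of all tested genes. The standard errors were larger in that fit, and some lost calls kept their size: Slc25a20 was at 0.71 ± 0.32, Acads at 0.48 ± 0.21 and Ehhadh at -0.51 ± 0.24, while Ppara was at 0.46 ± 0.36 and Decr1 at -0.30 ± 0.24. Of 9 fibroblast markers 0 were higher and 5 lower with DM-aKG than in control libraries, 4 of them without overlap, and 7 were higher and 1 lower in control than in WT libraries, 6 of the higher ones without overlap. Their summed level was 148 to 268 RPKM in DM-aKG, 264 to 401 RPKM in control and 120 to 195 RPKM in WT libraries. Of 10 endothelial markers 0 were higher and 1 lower with DM-aKG than in control libraries, 6 were higher in control than in WT libraries and 9 were higher in DM-aKG than in WT libraries. Of 10 macrophage markers 0 were higher and 3 lower with DM-aKG than in control libraries, and 2 were higher and 5 lower in control than in WT libraries. Of 15 epithelial markers 1 was higher and 7 lower with DM-aKG. With their mean as a covariate 1 of the 29 genes was higher and 0 lower, against 5.01% and 17.9% of all tested genes. That gene was not called in the main fit, and Ppara, Ppargc1a, Acadm, Hadhb and Ehhadh all lost their calls under this covariate. Of 9 fat cell markers 0 were higher and 0 lower with DM-aKG (2 and 0 at an unadjusted p under 0.05), and their summed level was 113 to 849 RPKM in DM-aKG, 49.6 to 666 RPKM in control and 43.2 to 650 RPKM in WT libraries. Without the 4 libraries with Adipoq of at least 40 RPKM, a choice made after the data were seen, 2 of the 29 genes were higher with DM-aKG and 0 lower, against 3.88% and 18% of all tested genes. The part of these cell types in the levels of the 30 genes was not tested beyond these fits.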

How the data were processed

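RNA was isolated by a Qiagen kit and made into Illumina TruSeq libraries, per the labels' protocols. The submitters' processing notes name CASAVA 1.8, HISAT2 2.0.4, Partek and the build mm10, and the annotation and strand setting are not given. The authors deposited 1 table of normalized values per gene, read here as RPKM from its scale and from the step between low values. Between 67 and 73.3% of low values came within 0.1 read of whole, so no count test was made. Depths are estimates from the same step.

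Values were taken as log2(RPKM + 1) for the 12433 genes that reached 1 RPKM in 6 libraries or more. A single limma 3.58.1 fit (trend and robust variance, R 4.3.3, statmod 1.5.0) over the 3 groups gave 3 comparisons with two-sided tests and Benjamini-Hochberg adjustment, and was tested on simulated data. Sequences and positions were handled with Python 3.11.15, pandas 2.3.3, numpy 2.4.6 and biopython 1.88. Alternatives changed the scaling, filter, pseudocount, weights, covariates and libraries, and each library was left out in turn. Genes were named by role, all 30 members being accounted for, and at most 3 per further list and comparison. The members and lists were chosen with earlier results of these data known. Some genes of the further lists are not reported here by name, though the counts include them.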

Additional observations from a re-analysis of the deposited data

Results flagged for a closer look

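Within each group, the gap of the highest or lowest library to its nearest neighbour was set against the group's range of log2(RPKM + 1) by Dixon's test, over 90 combinations of gene and group, and 8 passed its 95% limit. Chance alone passes about 1 in 20 groups. Of DM-aKG libraries, replicate 5 stood above its group for Hadha at 142 RPKM and for Cyp4a10 at 10.5 RPKM, and replicate 6 stood below its group for Angptl4 at 5.47 RPKM. Of control Apc Min libraries, replicate 6 stood below its group for Ppara at 3.83 RPKM. Of WT libraries, replicate 5 was low for Cpt2 at 25.8 RPKM, replicate 1 low for Etfdh at 23.7 RPKM and replicate 4 high for Acot1 at 1.37 RPKM. WT replicate 6 had the only WT value of Cyp4a10 above 0, at 0.000237 RPKM. With all other WT libraries at 0, any such value passes, so that flag carries no weight.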

How the results depend on the processing

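No change of a single gene among the 29 turned round in a called direction under the 34 alternatives, and of the single-gene results 2734 kept their side of the threshold, 159 lost the call and 65 gained it. Calls kept under every alternative were 0 of 5 for DM-aKG over control, 2 of 17 for control over WT (Acadl and Acot1) and 1 of 14 for DM-aKG over WT (Slc25a20). For DM-aKG over control, the genes called higher numbered 13 under quantile normalization, 14 under median-of-ratios scaling, 9 with array weights, 3 with the smooth muscle covariate, 1 with the epithelium covariate, 0 in replicates 1 to 4 and 2 each with no filter on low values, with only the 2 groups compared and without the 4 libraries with Adipoq of at least 40 RPKM, chosen after seeing the data. The shares of all tested genes called higher moved too, to 7.5% with array weights, 1.75% and 5.01% with the smooth muscle and epithelium covariates, 3.25% in replicates 1 to 4, 5.01% with no filter, 4.41% with only the 2 groups and 3.88% without the Adipoq libraries, from 5.91%. The gene called higher with the epithelium covariate was not among those called in the main fit. With array weights, and in replicates 1 to 4, 1 was lower (34.4% and 14.6% of all tested genes). Leaving out 1 library gave 2 to 9 higher and 0 to 1 lower (4.61 to 7.1% and 23.1 to 29.8% of all tested genes). For control over WT, median-of-ratios scaling gave 11 lower (27.5% of all tested genes) and the Adipoq choice 4 lower (15%). Replicates 5 to 7 gave 3 higher and 4 lower (30.1% and 9.18%), and the smooth muscle covariate 3 and 1 (23.6% and 4.59%). Leaving out 1 library gave 9 to 10 higher and 6 to 7 lower in this comparison (40.2 to 44.2% and 13.7 to 16.4%). For DM-aKG over WT, quantile normalization and replicates 1 to 4 each gave 1 lower, replicates 5 to 7 gave 3 higher and 0 lower (1.59% and 2.81% of all tested genes) and the epithelium covariate 0 lower (6.44%), while leaving out 1 library gave 11 to 13 higher and 0 to 2 lower. Fewer libraries enter the fits of replicate subsets; the cause of the other shifts was not tested. Of all calls for DM-aKG over control 17.6% were higher (48.6% and 47% under the 2 scalings); control over WT had 73.4% (49.2% and 48.9%). With the replicate number as a block, DM-aKG over control had 4 genes higher and 0 lower (6.1% and 29% of all tested genes). Control over WT had 10 and 7 (45.6% and 16.8%), and DM-aKG over WT had 12 and 2 (25.3% and 18.8%). Same-number correlations ran from -0.457 to 0.604, which cannot decide whether the numbers pair the libraries by design. Only 1 of 6 and 1 of 7 libraries in the first 2 comparisons correlated best with its own number. Counting depth cannot be tested on values without counts.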
